A study of Mus musculus with 9 samples.

Results

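Inpp4b encodes a lipid phosphatase that removes the 4-phosphate of phosphatidylinositol 3,4-bisphosphate. It was described with 7 genes of the same pathway, Inpp4a, Inpp5d, Pik3cd, Pik3r1, Pik3r5, Pik3ip1 and Foxo1, so that 8 of the 23466 genes in the count table were taken. All 8 were found by symbol and all 8 passed the filter on low counts. Inpp4b was chosen by its counts in these same libraries, where it was among the genes called lower after injury, so its values between the meningeal groups are a description without a test, and the same holds for the other 7 in that comparison.

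Class I phosphoinositide 3-kinases are recruited below cytokine, costimulatory and G-protein-coupled receptors and add a phosphate to membrane lipid, giving the phosphatidylinositol trisphosphate that recruits Akt and Tec family kinases. Inpp5d (SHIP-1) turns the trisphosphate into the 3,4-bisphosphate, which the 4-phosphatases Inpp4a and Inpp4b remove in turn. Akt phosphorylates FOXO factors and keeps them out of the nucleus, and in lymphocytes the pathway is known for linking growth factor and cytokine signals to survival, growth and trafficking.

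RNA was sequenced from group 2 innate lymphoid cells (ILC2s), tissue lymphocytes that make type 2 cytokines, of wild-type C57BL/6 mice aged 10 weeks. The groups, with 3 libraries each, were brain meninges without injury, brain meninges 24 h after an 80 kdyn contusion of the spinal cord, and lung without injury. Live CD45+ lineage-negative cells with ST2 and Thy1 on the surface had been sorted, and 5 mice were pooled per group, which leaves it unstated whether the libraries of a group came from separate pools. The spread between libraries may therefore be technical, and p-values measure only that spread. No group was labelled as sham-operated, so surgery and contusion cannot be told apart.

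Library totals ran from 13407277 to 18253462 counts, and 13465 to 18452 genes had at least 1 count. Injured meninges 2 stood apart, with the fewest genes and a median Spearman correlation across genes of 0.797 to its own group, against 0.825 to 0.873 for the other libraries. All 13 ILC2 markers examined, among them Gata3, Il1rl1, Ptprc and Thy1, had counts in every group, and their summed level was 8060 to 8770 counts per 1000000 counts of a library (CPM) in uninjured meninges. It was 8690 to 11500 CPM in injured meninges and 7930 to 10400 CPM in lung. In bulk libraries such as these, fewer cells of a type and less RNA per cell cannot be told apart.

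The windows of 250 bases before the annotated start sites of the paralogous 4-phosphatase genes are shown because the paralogues had very different levels. Their means also differed in opposite directions between the meningeal groups, which is a description without a test. They come from RefSeq on GRCm38.p6. The Inpp4b window is chr8:81342312-81342561 and the first of 3 Inpp4a windows is chr1:37299588-37299837, both on the plus strand. Capitals mark a cAMP response element, searched as TGACGTCA, which reads the same on both strands.

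Inpp4b: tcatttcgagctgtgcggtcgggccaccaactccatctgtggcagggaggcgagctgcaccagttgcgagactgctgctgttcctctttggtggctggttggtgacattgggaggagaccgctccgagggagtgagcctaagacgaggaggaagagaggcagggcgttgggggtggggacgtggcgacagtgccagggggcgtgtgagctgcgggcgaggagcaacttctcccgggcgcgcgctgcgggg
Inpp4a: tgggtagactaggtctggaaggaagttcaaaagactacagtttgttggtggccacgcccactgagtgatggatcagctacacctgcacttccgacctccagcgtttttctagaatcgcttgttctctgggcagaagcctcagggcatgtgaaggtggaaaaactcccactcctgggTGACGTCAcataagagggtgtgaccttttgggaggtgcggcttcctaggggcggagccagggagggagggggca

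The Inpp4b window had 66.0% G and C and 19 CG dinucleotides, against medians of 52.4% and 6 over 32851 promoter windows. The Inpp4a window shown had 55.6% G and C and 7 CG dinucleotides, while the second, overlapping Inpp4a window had 63.6% and 16, closer to Inpp4b. The cAMP response element began 74 bases before the Inpp4a start, in a stretch shared with the second Inpp4a window, and was found in 1.55% of all windows. The FOXO sequence GTAAACA, searched on both strands, was in none of the 13 windows of the 8 genes and in 3.17% of all windows. A match or its lack describes these letters alone.

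Inpp4b was by far the most abundant transcript of the 8. Its level was 1905, 1949 and 2104 CPM in uninjured meninges, 860, 1017 and 995 CPM in injured meninges, and 1336, 1705 and 1487 CPM in lung. The 3 groups did not overlap, with uninjured meninges highest, lung between and injured meninges lowest. By mean CPM, Inpp4b ranked 9 among 11920 nuclear-encoded protein-coding genes tested in uninjured meninges, 20 in lung and 42 in injured meninges. Per kb of exon the ranks were 40, 90 and 166, so the high count did not come from the length of its exons alone.

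**Figure D1:**
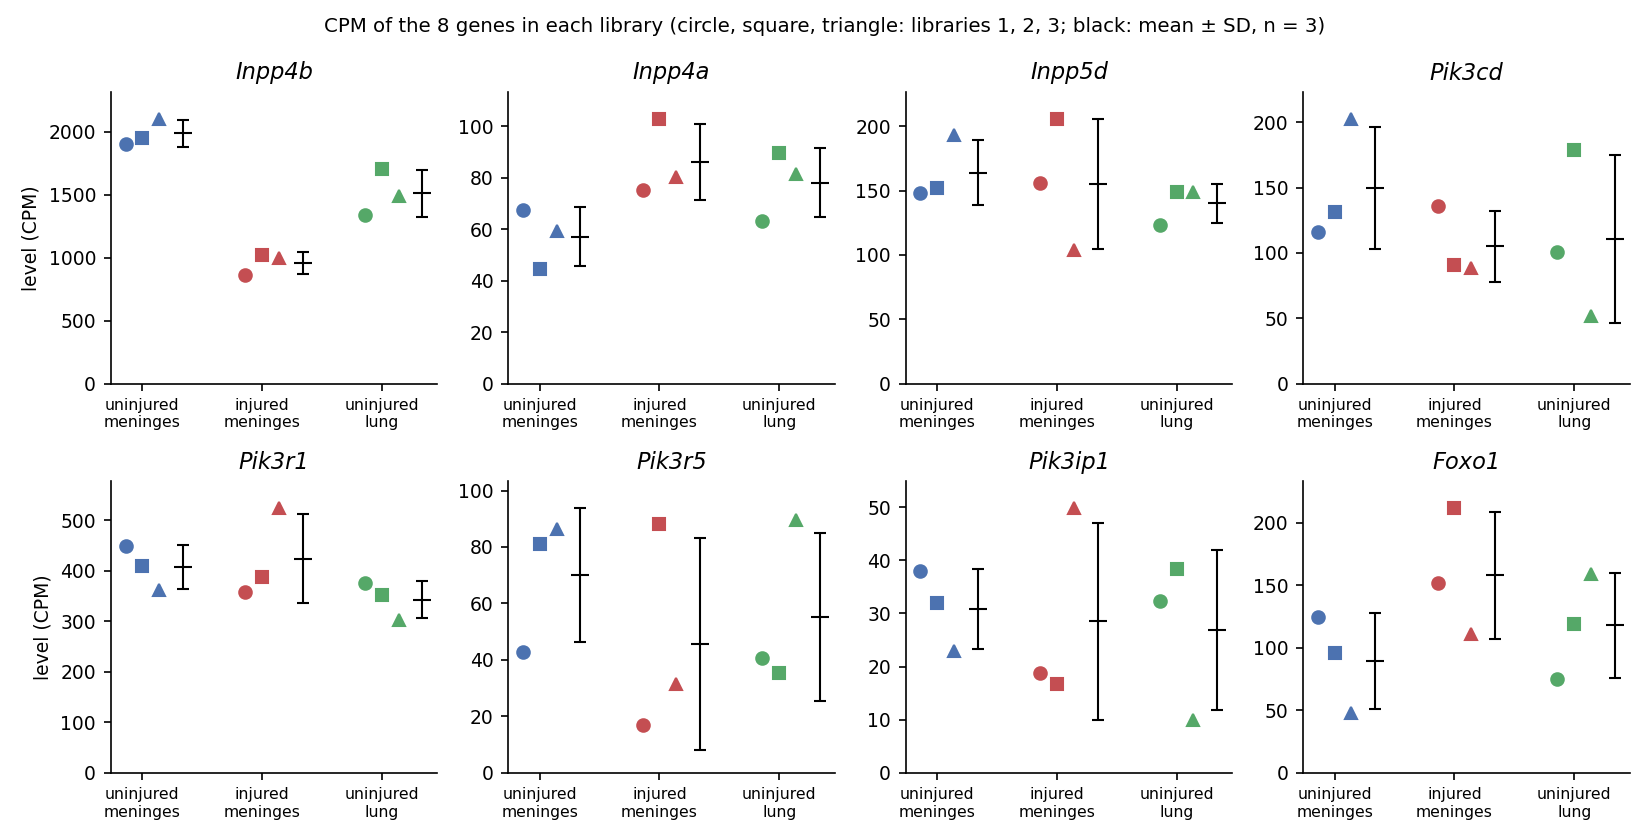
Level of each of the 8 genes in every library, in CPM on axes that start at 0, with libraries 1, 2 and 3 of a group as circle, square and triangle and the mean ± SD (n = 3) in black. The 3 groups separate for Inpp4b, at 1905 to 2104, 860 to 1017 and 1336 to 1705 CPM, while the groups of most other genes overlap.

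In what follows, levels of the 8 genes were set against each other per kb of exon. Exon lengths were from GENCODE M21, which may differ from the annotation behind the counts. In uninjured meninges Inpp4b stood at 152 ± 8.0 CPM per kb (SD, n = 3). Pik3r1, the regulatory subunit that binds and steadies class I catalytic subunits, followed at 40.4 ± 4.35. Pik3cd, the delta catalytic subunit found mainly in leukocytes, had 24.0 ± 7.46, and Inpp5d had 21.6 ± 3.32, less apart than their spread. Pik3r5, a regulatory subunit of the gamma kinase, had 12.6 ± 4.29 CPM per kb. Foxo1 had 10.3 ± 4.45, Pik3ip1 had 7.23 ± 1.76 and Inpp4a had 5.49 ± 1.11, each within the spread of its neighbour in this order. In lung the gap between Inpp4b, at 116 ± 14.2 CPM per kb, and Pik3r1, at 34.1 ± 3.66, remained well over the spread. In injured meninges Inpp4b, at 73.3 ± 6.54, still lay above Pik3r1, at 42.1 ± 8.77.

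**Figure D2:**
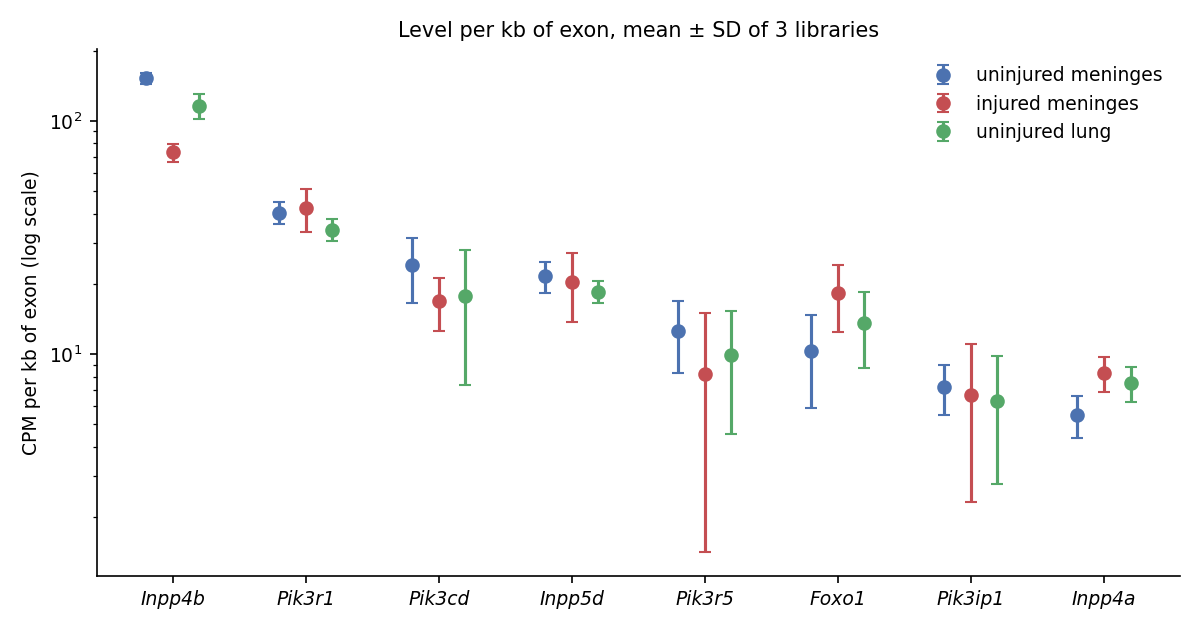
Mean level per kb of exon ± SD (n = 3 libraries) of the 8 genes on a log axis, ordered by uninjured meninges and coloured by group. Inpp4b lies highest in every group, at 152, 73.3 and 116 CPM per kb, and Inpp4a is the lowest of the 8 in uninjured meninges, at 5.49.

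The first comparison asked how these genes stood in meningeal ILC2s 1 day after spinal cord injury. The mean of Inpp4b was 957 ± 85.4 CPM after injury against 1986 ± 105 CPM without it (SD over 3 libraries). Its log2 fold change of -1.05 had an SE of 0.16, and the level was 2.07-fold lower. Its level in injured meninges 2, the library that stood apart, was 1017 CPM, close to the 860 and 995 CPM of the other injured libraries. With any 1 of the 9 libraries left out, the log2 fold change stayed between -1.10 and -0.97. Of the 8 genes, 1 passed the threshold of an edgeR adjusted p under 0.05 in this comparison, Inpp4b itself, and over all 15117 genes tested 0.192% passed. Because this comparison chose Inpp4b, nothing is read from that count, and the range with a library left out describes the same values that chose it.

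Markers of B cells, which also use this pathway, were mostly lower as well. The summed level of 11 B cell markers was 214 to 947 CPM in uninjured meninges, 33.1 to 137 CPM in injured meninges and 244 to 336 CPM in lung. The mean was lower in injured than in uninjured meninges for 8 of the 11, and Blk was at 0 in all 3 injured libraries and in 2 of the 3 uninjured ones. Ighm made up most of the sum, with 667, 184 and 886 CPM in uninjured meninges and 47.1, 59.1 and 28.6 CPM in injured meninges. Without the immunoglobulin genes, 9 markers summed to 56.4, 29.8 and 61.3 CPM in meninges without injury and 12.9, 75.2 and 3.07 CPM after it, so these groups overlapped. The summed level of 10 T cell markers was 206 to 327 CPM in meninges without injury and 156 to 210 CPM after it, so these groups overlapped. Trbc1 and Trbc2 made up most of that sum, with means of 117 and 107 CPM without injury and 68.9 and 57.4 CPM after it. The mean was lower after injury for 7 of the 10 and higher for 3, among them Cd3g and Trac. Thy1, 1 of the 13 ILC2 markers and a marker of the sort, was also lower after injury, with 279, 167 and 229 CPM without it and 92.5, 60.1 and 51.4 CPM after it (edgeR adjusted p = 0.022). It was the only ILC2 marker called between the meningeal groups. The mean was lower after injury for 5 of the 13 ILC2 markers and higher for 8. Monocyte and macrophage markers leaned the other way, with sums of 34.1 to 118 CPM without injury and 66.1 to 171 CPM after it. Of these 12 markers, 10 had a higher mean after injury and 2 a lower one. The part of B cells, T cells, monocytes and macrophages or the sort in the level of Inpp4b was not tested.

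Inpp4a, the paralogue of Inpp4b, leaned the other way. Its level was 67.3, 44.5 and 59.1 CPM in uninjured meninges and 75.2, 103 and 80.1 CPM in injured meninges, a log2 fold change of 0.60 ± 0.32. The 2 groups did not overlap, as in 12.1% of all genes tested. Within a library, Inpp4b exceeded Inpp4a per kb of exon by 22.5, 34.8 and 28.3 times in uninjured meninges and by 9.09, 7.85 and 9.88 times in injured meninges. In lung the ratio was 16.8, 15.1 and 14.5. The ratio did not overlap between the 3 groups, but it holds Inpp4b, which already separated them, so its order adds no support. Inpp4b stayed the predominant 4-phosphatase transcript in every library.

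Inpp5d, which makes the lipid that Inpp4b removes, had 148, 152 and 193 CPM in meninges without injury and 156, 206 and 104 CPM after it. Its groups overlapped, with both the highest and the lowest value among the injured libraries, and the log2 fold change was -0.08 ± 0.28. Pik3r1 had 450, 409 and 363 CPM in meninges without injury and 359, 388 and 525 CPM after it, a log2 fold change of 0.06 ± 0.21. Inpp5d and Pik3r1, with Pik3ip1, had the smallest log2 fold changes of the 8.

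Pik3cd had 116, 131 and 203 CPM in meninges without injury and 136, 90.8 and 88.7 CPM after it, a log2 fold change of -0.51 ± 0.39. The uninjured mean was raised by library 3, and 2 of the 3 injured libraries lay below all uninjured ones. Pik3r5 had 42.8, 81.2 and 86.4 CPM in meninges without injury and 17.1, 88.3 and 31.3 CPM after it, a log2 fold change of -0.62 ± 0.55. The high injured value of Pik3r5 was that of injured meninges 2, and without this library the log2 fold change was -1.53. Pik3ip1, which encodes a membrane protein that restrains the catalytic subunit, had 37.9, 31.9 and 22.9 CPM in meninges without injury and 18.8, 16.7 and 49.9 CPM after it, a log2 fold change of -0.12 ± 0.61. Here injured meninges 3 was the high library, and without it the log2 fold change was -0.80.

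Foxo1, the transcription factor that Akt restrains, had 125, 96.1 and 48.2 CPM in meninges without injury and 152, 212 and 111 CPM after it. The groups overlapped, because injured meninges 3 lay below uninjured meninges 1, and the log2 fold change was 0.82 ± 0.38. With 1 library left out it ranged from 0.52 to 1.13. The mean was 158 ± 51.0 CPM in injured and 89.6 ± 38.6 CPM in uninjured meninges. Over all 8 genes, the log2 fold change was above 0 for 3 and below 0 for 5 in this comparison, with a median size of 0.55 in either direction, against 0.63 over all genes tested.

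The genes also differed in how far libraries of 1 group varied. The coefficient of variation of Inpp4b was 5.26% without injury, 8.92% after injury and 12.3% in lung. For Pik3r5 it was 34%, 82.7% and 54.1%, and for Pik3ip1 it was 24.4%, 65.3% and 55.9%. For Inpp4a it was 20.3%, 17.3% and 17.2%. Inpp4a was about as scarce per kb as Pik3ip1 but had more counts, 690 to 1296 in a library against 154 to 796. Pik3r5 and Pik3ip1 were high in different injured libraries.

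The second comparison set uninjured meninges against uninjured lung. It and the next one bring in the lung libraries, but they share the meningeal libraries with the comparison that chose Inpp4b. The lung libraries were also part of the same fit, and the genes were chosen with earlier results of these data known. The p-values of Inpp4b against lung are therefore not independent of its choice. The mean of Inpp4b was 1986 ± 105 CPM in the meninges against 1509 ± 186 CPM in the lung, a log2 fold change of 0.40 ± 0.16 with a 95% interval of 0.07 to 0.73 that does not allow for the number of genes tested. It did not pass the threshold (edgeR adjusted p = 0.45), although each meningeal library lay above each lung library. Of the 8 genes, 0 were called by edgeR, where 0.635% of all genes were called, 1 had an unadjusted p under 0.05, against 7.98% of all genes, and DESeq2 called 0.

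The lung level of the other 7 genes overlapped with that of uninjured meninges. Inpp4a had 63.2, 89.5 and 81.4 CPM in lung, a log2 fold change, meninges minus lung, of -0.45 with a 95% interval of -1.14 to 0.23. Inpp5d had 123, 149 and 149 CPM in lung and an interval of -0.36 to 0.82. For Pik3r1, with 375, 352 and 303 CPM in lung, the interval was -0.19 to 0.69. These intervals leave room for differences of up to about the size seen for Inpp4b between the meningeal groups only in the case of Inpp4a.

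Pik3cd varied most across the lung libraries, with 101, 179 and 51.5 CPM, and its interval was -0.39 to 1.26. Pik3r5 had 40.7, 35.2 and 89.4 CPM in lung, and its interval was -0.83 to 1.52. Pik3ip1 had 32.4, 38.4 and 9.86 CPM in lung, with an interval of -1.09 to 1.49. Foxo1 had 75.2, 119 and 159 CPM in lung, with an interval of -1.19 to 0.40. The intervals of Pik3r5 and Pik3ip1 thus hold a 2-fold higher level in meninges, as does that of Pik3cd, and those of Pik3ip1 and Foxo1 hold a 2-fold lower one.

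The third comparison set injured meninges against uninjured lung, so tissue and injury both differ. The mean of Inpp4b was below that of lung, with 957 ± 85.4 against 1509 ± 186 CPM, a log2 fold change of -0.66 ± 0.16 and a 95% interval of -0.99 to -0.33. It narrowly missed the threshold (edgeR adjusted p = 0.058), with all 3 injured libraries below all 3 lung libraries. It was called in 4 of 15 alternatives, whose adjusted p ranged from 0.00655 to 0.22, among them DESeq2 (0.00655), no filter on low counts (0.0377) and mitochondrial genes left out (0.0496). Of the 8 genes, 0 were called by edgeR, where 1.05% of all genes were called, 1 had an unadjusted p under 0.05, against 13.3% of all genes, and DESeq2 called 1.

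The other 7 genes overlapped between injured meninges and lung. Pik3r1 had the largest mean difference relative to its error among them, a log2 fold change of 0.31 ± 0.21 (95% interval -0.14 to 0.75). Foxo1 had 0.42 ± 0.38. For Inpp4a, Inpp5d, Pik3cd, Pik3r5 and Pik3ip1 the log2 fold changes were 0.14, 0.15, -0.07, -0.27 and 0.08, and the sign of each depended on which libraries were included. Inpp4b was the only 1 of the 8 without overlap in either comparison with lung, where 18.2% of all genes did not overlap for uninjured and 17.8% for injured meninges.

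**Figure D3:**
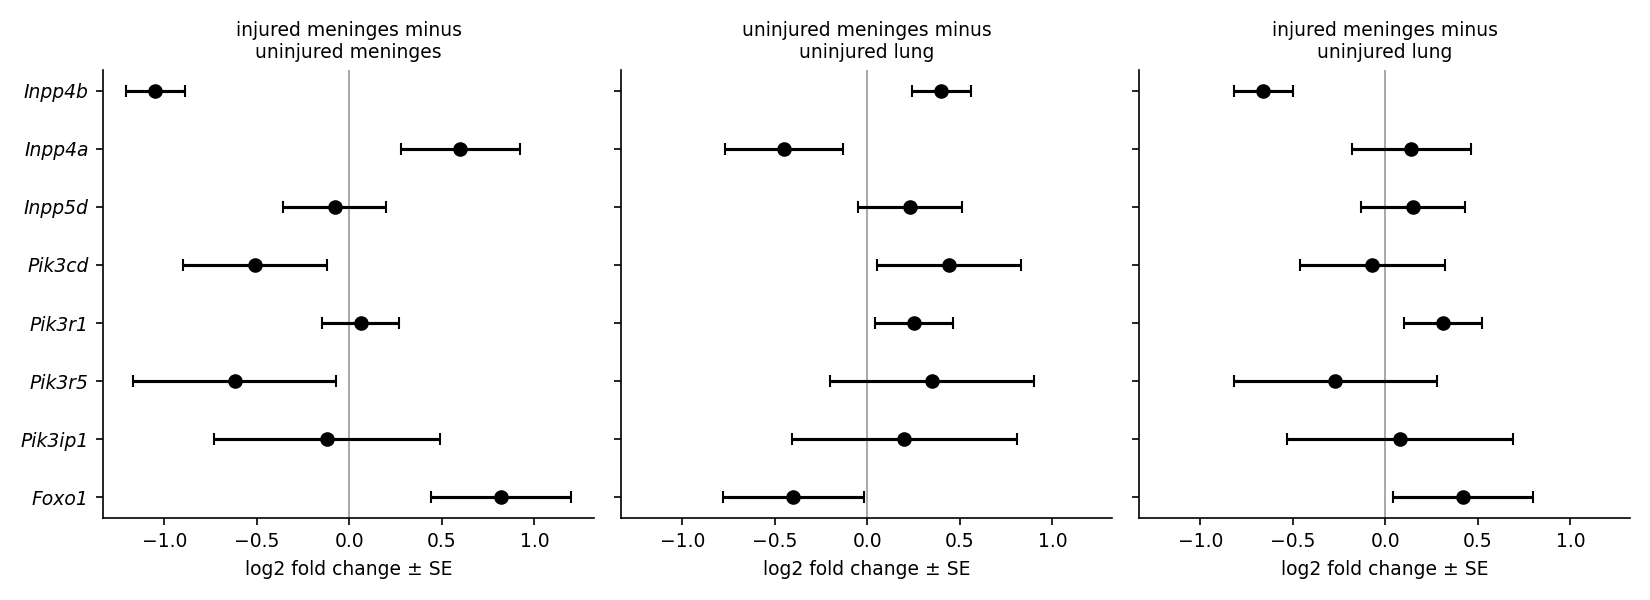
Log2 fold change ± SE of the 8 genes in the 3 comparisons, first-named group minus second. Inpp4b lies at -1.05, 0.40 and -0.66 with the narrowest error bars, ± 0.16, and the bars of Pik3ip1 are the widest, ± 0.61.

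Lung libraries also had higher summed levels of epithelial markers. Markers of lung epithelium summed to 695 to 2180 CPM in lung, 4.03 to 12.0 CPM in meninges without injury and 10.5 to 27.8 CPM after it, and all 9 had a lower mean in uninjured meninges than in lung. Endothelial markers summed to 200 to 631 CPM in lung and 61.8 to 231 CPM in uninjured meninges, with all 8 lower in meninges. Monocyte and macrophage markers summed to 34.5 to 504 and 34.1 to 118 CPM, which overlapped. Fibroblast markers summed to 107 to 284 CPM in lung and 4.65 to 82 CPM in uninjured meninges. Of these 8, 6 had a lower mean in uninjured meninges and 2 a higher one. The part of these cells in the lung levels of the 8 genes was not tested.

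The rest of the pathway was read from 11 fixed lists holding 137 further genes, of which 134 were in the table and 128 were tested. In injured against uninjured meninges, edgeR called 0 of the 128, where 0.192% of all genes were called, so this 0 says little. An unadjusted p under 0.05 was found for 10 (7.81%, against 8.94% of all genes). DESeq2 gave an adjusted p for 126 of the 128 and called 6, all higher. Over all genes it called 213 higher and 222 lower. The number of all genes with a DESeq2 adjusted p was not recorded, so its counts are not read as shares. The 6 were Irs2, Gab2, Gab3, Kit, Arap2 and Bcl2l11. Gab2 had the largest log2 fold change of them, 2.93 by DESeq2 (adjusted p = 0.014). Of 16 upstream adaptors and receptors, 6 had an unadjusted p under 0.05 (37.5%, against 8.94% of all genes). This list is named because its share was the highest of the 11, the next being 9.09%. Its log2 fold change was above 0 for 9 genes and below 0 for 7, and edgeR called 0 of the 16. The median log2 fold change of the 128 was 0.21, against 0.00 over all genes tested, with 77 positive and 51 negative. The groups did not overlap for 15 higher and 6 lower genes, 16.4% of the 128 against 12.1% of all genes.

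Among class I catalytic subunits, Pik3cg, the gamma subunit that acts below G-protein-coupled receptors, had 182 ± 45.9 CPM in meninges without injury and 232 ± 28.7 CPM after it (edgeR adjusted p = 0.75). None of the 3 further catalytic genes was called in any comparison, and neither was any of 4 further regulatory genes. None of them had an unadjusted p under 0.05 or was called by DESeq2. With 0.192% to 1.05% of all genes called by edgeR, 0 is no result for lists this short. Pik3r6, the alternative partner of the gamma subunit, was near the limit of detection, with 6.39, 0 and 0 CPM in injured meninges, where a count of 0 allows up to 3 counts, or 0.239 and 0.188 CPM in the libraries at 0 (a limit of counting error only). Per kb of exon in uninjured meninges, Pik3r6 had 0.0663 CPM and Pik3r5 had 12.6.

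Among 20 further phosphoinositide phosphatases, edgeR and DESeq2 called 0 in any of the 3 comparisons, where edgeR called 0.192% to 1.05% of all genes. At most 1 had an unadjusted p under 0.05 (5%, against 7.98% to 13.3% of all genes), and the median log2 fold change between meningeal groups was 0.06. Of 11 kinases for other positions of the lipid, Pip5k1a, which makes the substrate of the class I kinases, averaged 30.2 ± 10.4 CPM without injury and 12.6 ± 5.84 CPM after it, short of the threshold (edgeR adjusted p = 0.57).

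Downstream, Arap2, which encodes a lipid-binding GTPase-activating protein, had the smallest p of 20 tested effectors after injury, with 144 ± 25.2 CPM in meninges without injury and 280 ± 50.5 CPM after it (log2 fold change 0.96 ± 0.25, edgeR adjusted p = 0.22). It was called by DESeq2 alone (adjusted p = 0.0203), among 15 alternatives with adjusted p from 0.0203 to 0.546. Of 16 genes of the mTOR complexes and their control, 14 lay above 0 and 2 below 0 in log2 fold change after injury. Their median was 0.30, against 0 over all genes tested. None was called by edgeR (against 0.192% of all genes) or DESeq2, and 0 had an unadjusted p under 0.05 (against 8.94%). Phlpp1, a phosphatase that acts on Akt, measured 11.7 ± 1.15 CPM in meninges without injury, 24.6 ± 11.1 CPM after injury and 45.3 ± 3.05 CPM in lung. It was not called in uninjured meninges against lung (log2 fold change -1.95 ± 0.53, edgeR adjusted p = 0.15), but was called there by DESeq2 (9.74e-05), with only the 2 groups compared (0.0385) and without injured meninges 2 (0.0411).

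Both genes called in uninjured meninges against lung act upstream of the kinases. Irs2, an adaptor that links insulin-type and cytokine receptors to the regulatory subunit, measured 72.1, 56.4 and 63.6 CPM in meninges without injury, 174, 133 and 158 CPM after injury and 239, 547 and 380 CPM in lung. The 3 groups did not overlap, in an order that differs from that of Inpp4b. Irs2 was lower in uninjured meninges than in lung, with a log2 fold change of -2.60 ± 0.30 (edgeR adjusted p = 4e-04), and in all 15 alternatives (adjusted p up to 0.00462). It was lower in injured meninges than in lung by -1.33 ± 0.28 (edgeR adjusted p = 0.032). This second call was kept in 9 of 15 alternatives. Those that lost it included leaving out injured meninges 2 or 3 or lung 2 or 3 (edgeR adjusted p 0.0826 to 0.198) and fitting only the 2 groups compared (0.0641). Between the meningeal groups the log2 fold change of Irs2 was 1.28 ± 0.28 (edgeR adjusted p = 0.10), and it was called there by DESeq2 (0.00741) and without the filter on low counts (0.013). Kit, the receptor for stem cell factor, had 209, 306 and 230 CPM in uninjured meninges and 618, 854 and 692 CPM in lung, a log2 fold change of -1.54 ± 0.23 (edgeR adjusted p = 0.0031) that held in all 15 alternatives. After injury Kit had 381, 405 and 550 CPM, above all uninjured meningeal libraries, and DESeq2 called it higher there (adjusted p = 0.043). Markers of mast cells and basophils, which also carry Kit, summed to 2.06 to 23.2 CPM in uninjured meninges and 41.5 to 59.3 CPM in lung. Of these 8 markers, 4 had a higher mean in uninjured meninges and 4 a lower one, and 4 were at 0 in lung. Hdc, at a mean of 36.8 CPM, made up most of the lung sum. The part of these cells in the level of Kit was not tested. In all, 2 of the 128 genes were called in uninjured meninges against lung, both lower, 1.56% against 0.635% of all genes. An unadjusted p under 0.05 was found for 17 (13.3%, against 7.98% of all genes). DESeq2 called 9 of the 126 with an adjusted p, where it called 536 of all genes.

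In injured meninges against lung, 4 of the 128 genes were called, 2 higher and 2 lower, 3.12% against 1.05% of all genes. An unadjusted p under 0.05 was found for 19 (14.8%, against 13.3% of all genes). DESeq2 called 10 of the 126 with an adjusted p, where it called 1091 of all genes. Besides Irs2, edgeR called Ddit4, Txnip and Gadd45b. Ddit4, an inhibitor of mTOR complex signalling, had 55.9, 118 and 26.6 CPM in injured meninges and 8.60, 16.6 and 15.4 in lung, a log2 fold change of 2.30 ± 0.53 (edgeR adjusted p = 0.049). Uninjured meninges, at 53.1, 52.3 and 53.9 CPM, lay above lung as well. There the log2 fold change was 1.97, not called by edgeR (adjusted p = 0.134) but called by DESeq2 (0.0144). The call of Ddit4 in injured meninges against lung was kept in 4 of 15 alternatives. It was lost with any 1 library but injured meninges 3 left out (edgeR adjusted p 0.0525 to 0.212), with other size factors (0.0516) and with only the 2 groups compared (0.112), among others. When injured meninges 2 was left out, 0 of the 128 were called.

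FOXO factors and genes known as their targets were listed to set beside Foxo1. Foxo3 had 130 ± 25.5 CPM in meninges without injury and 100 ± 53.7 CPM after it (edgeR adjusted p = 0.85), with its lowest value, 39.0 CPM, in injured meninges 2, where Foxo1 was highest. Without that library the log2 fold change of Foxo3 went from -0.37 to 0.01. Foxo4 had 19.4 ± 1.76 and 23.5 ± 9.61 CPM. Per kb of exon in uninjured meninges it was scarcer than Foxo3, at 5.57 against 17.1 CPM per kb. Of 22 target genes tested, edgeR called 0 between the meningeal groups, where it called 0.192% of all genes. DESeq2 called 1, where it called 435 of all genes. An unadjusted p under 0.05 was found for 2 (9.09%, against 8.94% of all genes). In log2 fold change 14 lay above 0 and 8 below 0, with a median of 0.58, against 0 over all genes tested. Bcl2l11, which encodes the death-promoting protein Bim, had 83.2, 85.0 and 71.5 CPM in meninges without injury and 135, 148 and 182 CPM after it (log2 fold change 0.95 ± 0.26, edgeR adjusted p = 0.26), and was the 1 called by DESeq2 (0.00619). Txnip, an inhibitor of thioredoxin and of glucose uptake, measured 667, 546 and 299 CPM in meninges without injury, 776, 846 and 911 CPM after injury and 470, 307 and 262 CPM in lung. It was called higher in injured meninges than in lung, by 1.29 ± 0.28 on the log2 scale (edgeR adjusted p = 0.033). Its call was lost without injured meninges 2 or 3 and without lung 2 or 3 (edgeR adjusted p 0.0526 to 0.174). Gadd45b, a stress-response gene, had 0, 0 and 1.63 CPM in injured meninges and 66.2, 137 and 113 in lung (edgeR adjusted p = 0.014), and its call was lost without injured meninges 2 (0.0714) or without the filter on low counts (0.152). In uninjured meninges Gadd45b was low as well, at 2.99, 0.516 and 4.7 CPM. Its log2 fold change there against lung was -5.26, short of the edgeR threshold (adjusted p = 0.0701) and called by DESeq2 (0.0371). Klf2 and S1pr1, FOXO targets that guide lymphocyte traffic, stood at 3.34 ± 2.93 and 3.36 ± 1.79 CPM without injury and at 1.86 ± 1.81 and 4.31 ± 3.21 CPM after it, and were named here after their values were seen. In lung they stood at 10.9 ± 4.41 and 28.4 ± 13.9 CPM. DESeq2, but not edgeR, called S1pr1 lower than in lung in uninjured (adjusted p = 0.0014) and injured meninges (0.0051).

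**Figure D4:**
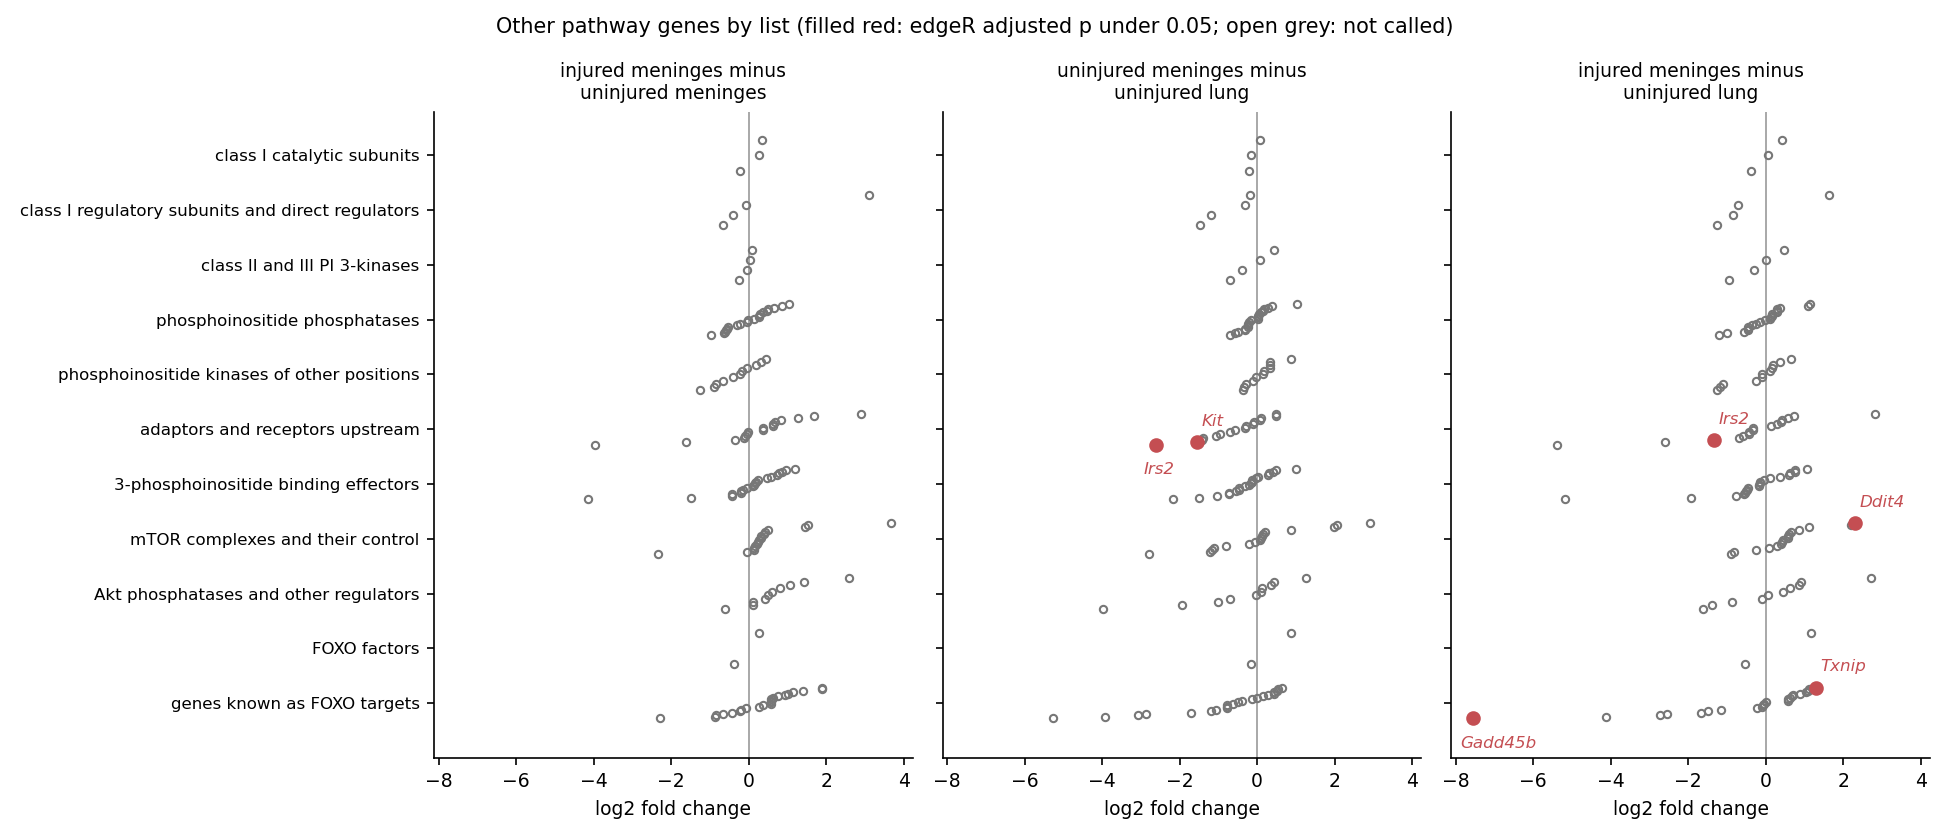
Log2 fold change of the 128 other pathway genes tested, by list, in the 3 comparisons, with genes at an edgeR adjusted p under 0.05 in filled red and the others in open grey. No gene is red between the meningeal groups, 2 are in uninjured meninges against lung and 4 in injured meninges against lung.

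The genes whose pattern was most like that of Inpp4b were found by the root mean square difference of log2(CPM + 1) over the 9 libraries, each gene centred on its own mean. Among 7201 candidates, the nearest were Slc9a9 (0.19), Slfn5 (0.20), Tlr1 (0.20), Ptma (0.21), Chchd3 (0.21) and Spen (0.22). Slfn5, a member of the Schlafen family, measured 137, 151 and 144 CPM in meninges without injury, 70.2, 81.2 and 61.9 CPM after injury and 139, 121 and 107 CPM in lung. Slc9a9, a sodium and proton exchanger of endosomes, had means of 146 ± 34.2, 73.0 ± 18.7 and 113 ± 11.8 CPM. These genes were chosen for their likeness, so their levels are a description, and they share the library scaling with Inpp4b. None of the other 7 pathway genes came near, with differences from 0.47 for Inpp5d to 0.92 for Foxo1.

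**Figure D5:**
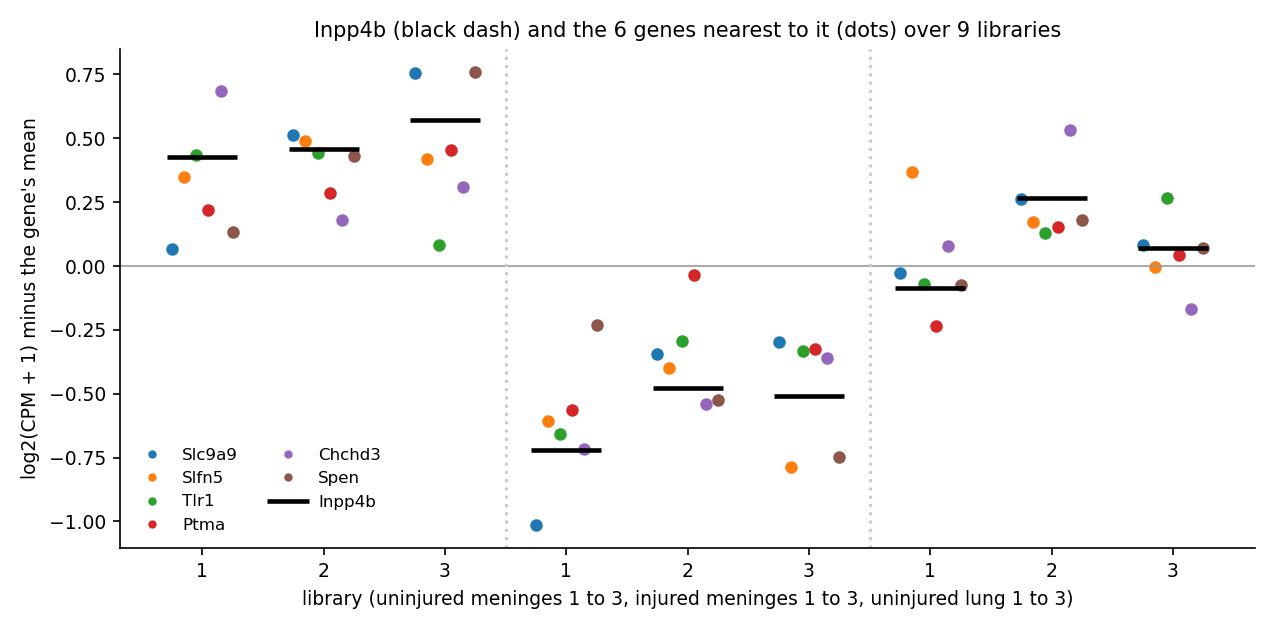
Log2(CPM + 1) minus the gene's own mean in each of the 9 libraries for Inpp4b (black dash) and the 6 genes nearest to it (dots). All 7 genes lie above their mean in uninjured meninges and below it in injured meninges, with lung between, by the mean of each group.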

How the data were processed

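Per the labels' protocols, a PicoPure kit yielded the RNA of sorted ILC2s, and Ovation RNA-Seq System V2 amplified it. The authors deposited raw counts for each gene in 9 libraries. FastQC, STAR, HTSeq and the mm9 build are named in the submitters' processing notes, with no role, version or strand setting, so reads of overlapping or antisense genes may be mixed. Genes were named by the table's symbol (15969) or by Ensembl identifier in a reference list (7407), and 90 kept the identifier. Every pair of libraries differed by far more than sampling noise (chi-square over its degrees of freedom at least 62.8).

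Counts were tested with edgeR 4.0.16 (R 4.3.3), using filterByExpr (15117 genes kept), scaling by the trimmed mean of M values, and robust quasi-likelihood F tests in 1 fit of all 9 libraries with a mean per group. Benjamini-Hochberg adjusted p under 0.05 over all genes counts as called. An SE is the size of the log2 fold change over the root of its F. CPM use the same scaling. Amplified reads are not independent molecules, so limits of counting cover counting error only. Alternatives were DESeq2 1.42.0, other size factors, no filter, the 2 groups alone, a replicate block, no mitochondrial genes, and each library left out.

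The 8 genes and all lists were chosen with earlier results of these data known. The rule names the 8 genes, each pathway gene called, the gene with the smallest p per list and comparison, the 6 genes most like Inpp4b among protein-coding genes averaging 10 CPM or more, and marker lists by their sums. Fewer than it gives are named, and Gab2, Gab3, Klf2 and S1pr1 are named outside it. Promoter windows are RefSeq's on GRCm38.p6, and exon lengths are from GENCODE M21.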

Additional observations from a re-analysis of the deposited data

How the results depend on the processing

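With 3 libraries a group, 1 library decided several counts, and the wide spread of Pik3r5 and Pik3ip1 between libraries limited their comparisons. Genes called over the whole table numbered 29 after injury (20 higher, 9 lower), 96 in uninjured meninges against lung (6 higher, 90 lower) and 159 in injured meninges against lung (27 higher, 132 lower). Without the filter on low counts they were 78, 193 and 296, and with DESeq2 435 (213 higher, 222 lower), 536 (99 higher, 437 lower) and 1091 (312 higher, 779 lower). With only the 2 groups compared they were 12 after injury and 226 in uninjured meninges against lung. With 1 library left out they ranged from 18 to 27, 51 to 196 and 54 to 230, with the lowest values without injured meninges 2, lung 3 and lung 3. The count of 196 was without injured meninges 2. The cause was not tested.

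Of the 8 genes, 0 were called in uninjured meninges against lung in all 15 alternatives. In injured meninges against lung the count went from 0 to 1, Inpp4b, without the filter, with DESeq2, with the replicate block (adjusted p = 0.0298 by edgeR) and without mitochondrial genes. Of the 128 other pathway genes, 0 were called after injury, against 2 without the filter, 6 with DESeq2 and 0 to 1 with 1 library left out. In uninjured meninges against lung 2 were called, against 9 with DESeq2, 7 with only the 2 groups compared and 2 to 5 with 1 library left out, 5 being without injured meninges 2. In injured meninges against lung 4 were called, against 10 with DESeq2, 2 with only the 2 groups compared, 2 with the replicate block and 0 to 3 with 1 library left out, 0 being without injured meninges 2 and 1 without lung 2 or lung 3.

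With 1 library left out, the log2 fold change of Pik3ip1 ran from -0.20 to 0.53 in uninjured meninges against lung. In injured meninges against lung that of Inpp4a ran from -0.01 to 0.23, Inpp5d from -0.11 to 0.37, Pik3cd from -0.42 to 0.44, Pik3r5 from -1.18 to 0.26 and Pik3ip1 from -0.60 to 0.41. After injury Pik3r6 ran from -4.94 to 5.69, Pik3c2b from -0.94 to 0.08, Foxo3 from -0.69 to 0.01 and Pik3ip1 from -0.80 to 0.15.

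Libraries with the same replicate number did not deviate together (correlations across genes of -0.034 to 0.096, against -0.112 to 0.092 for different numbers), and not every library correlated best with its own number, so the numbers were taken as names. With the replicate block, 43, 136 and 183 genes were called in the 3 comparisons, and in injured meninges against lung Irs2 (edgeR adjusted p = 0.0506) and Ddit4 (0.0682) were not.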
